A study of Mus musculus with 6 samples.

Results

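The genes for tropomyosins (Tpm1, Tpm2, Tpm3 and Tpm4), calponins (Cnn1, Cnn2 and Cnn3) and transgelins (Tagln and Tagln2), with the smooth muscle myosin heavy chain gene Myh11, were examined in mouse adipose-derived stromal cells (ADSCs). They were taken by gene symbol, and all 10 were found among the 22186 genes of the deposited table. ADSCs are connective tissue cells with a fibroblast shape that are grown from fat. The libraries came from primary ADSCs of wild-type (WT) genotype under the treatment label Ctrl (control, n = 3), and from such ADSCs that had shared a culture with regulatory T cells for 48 h (Treg co-culture, n = 3). Each library was deposited as transcript values scaled to a fixed total (TPM), so sequencing depth is unknown. TPM corrects for gene length, so levels of different genes can be set side by side. How reads shared by paralogs were treated is not given, which limits comparisons of level between paralogs. Whether the 3 libraries of a group stem from different mice or dishes is not given in the labels, and the p-values then reflect only their spread, possibly a technical one. Since no library described here came from co-culture with another cell type, Treg and co-culture as such cannot be told apart.

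Tropomyosins are coiled-coil proteins that lie along the actin filament and control which proteins, myosin among them, can reach it. Most tropomyosin genes make several proteins by alternative promoters, splicing or both, some of muscle and some of the general cytoskeleton. The GENCODE M21 gene annotation lists 16 protein-coding transcripts for Tpm1 but 1 for Tpm4. Calponins and transgelins are related actin-binding proteins that share a calponin homology domain, and calponin 1, transgelin and Myh11 are widely used as markers of smooth muscle. Calponin 1 and transgelin also mark contractile fibroblasts. Many of these genes are known targets of serum response factor (SRF), which binds a DNA element called the CArG box.

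After co-culture 8 of the 10 genes rose, 1 fell and 1 did not pass the test. All 4 tropomyosins rose, Tpm2 the most of them, from 641 ± 15.1 to 868 ± 7.60 TPM (mean ± SD, n = 3 each). Of the calponins, Cnn1 and Cnn2 rose, while Cnn3 stood at 630 ± 7.81 and 645 ± 4.93 TPM. Both transgelins rose, Tagln2 by 40.6% and Tagln by 9.51% in mean TPM. Myh11, the myosin motor of differentiated smooth muscle, fell from 14.7 ± 1.69 to 10.99 ± 0.241 TPM. Genes were called by limma on log2(TPM + 1) at a Benjamini-Hochberg adjusted p under 0.05 over 12405 genes, where 37.8% of all genes passed, 19.8% as higher and 18% as lower. The 3 co-culture libraries lay above the 3 controls for 9 members and below them for 1, against 25.3% and 24% of all genes. The members were chosen with earlier results of these data known, so setting their counts beside these shares is a description and no test. Among genes with a mean of 10 TPM or more, as all 10 members had, 22.7% were higher and 20.1% lower. That mark does not match the members in level, since 8 of them had a control mean above 300 TPM. Shares among genes that abundant were not computed.

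Sequences before the starts of some of these genes are shown as a description, and whether they bear on the changes was not tested. RefSeq promoter windows (GRCm38.p6, 250 bases before to 50 after an annotated start) matched 8 of the 10 members, with 9 windows since Tpm3 has 2 starts. Tagln and Myh11 had no entry. The 250 bases before the start are printed 5′ to 3′ for Tpm1, the most abundant member, and for the strongest risers Tpm2 and Tagln2. They are also printed for Cnn2, whose window held the CArG box, and for Cnn3, which did not pass the test. Those of Tpm3, Tpm4 and Cnn1 are not printed, although these genes rose too and the window of Cnn1 held no motif searched. Capitals mark the motifs searched on both strands: the CArG box, the TEAD factor site CATTCC, whose opposite strand reads as GGAATG, and the E-box CAGCTG, which reads the same on both strands.
Tpm1, chr9:67049214-67049463, minus strand: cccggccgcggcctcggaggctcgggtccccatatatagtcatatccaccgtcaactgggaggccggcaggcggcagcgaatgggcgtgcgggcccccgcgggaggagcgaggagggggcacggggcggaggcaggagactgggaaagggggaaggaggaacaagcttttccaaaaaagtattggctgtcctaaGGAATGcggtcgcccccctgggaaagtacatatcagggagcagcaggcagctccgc
Tpm2, chr4:43523555-43523804, minus strand: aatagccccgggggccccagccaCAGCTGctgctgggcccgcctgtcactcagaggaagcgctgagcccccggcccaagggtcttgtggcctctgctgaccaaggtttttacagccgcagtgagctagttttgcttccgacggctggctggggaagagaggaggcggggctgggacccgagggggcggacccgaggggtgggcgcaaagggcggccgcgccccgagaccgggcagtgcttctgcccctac
Cnn2, chr10:79988350-79988599, plus strand: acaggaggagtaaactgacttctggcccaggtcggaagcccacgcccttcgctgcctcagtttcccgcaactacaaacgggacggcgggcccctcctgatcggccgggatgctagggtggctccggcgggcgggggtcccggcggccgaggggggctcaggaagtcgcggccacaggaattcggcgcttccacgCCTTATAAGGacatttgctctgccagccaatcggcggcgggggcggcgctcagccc
Cnn3, chr3:121426291-121426540, plus strand: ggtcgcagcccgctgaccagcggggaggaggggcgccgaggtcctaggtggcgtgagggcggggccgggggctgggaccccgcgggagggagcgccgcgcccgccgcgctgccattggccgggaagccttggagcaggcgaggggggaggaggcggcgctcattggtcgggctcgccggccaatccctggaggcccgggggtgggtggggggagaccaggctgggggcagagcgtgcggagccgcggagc
Tagln2, chr1:172499996-172500245, plus strand: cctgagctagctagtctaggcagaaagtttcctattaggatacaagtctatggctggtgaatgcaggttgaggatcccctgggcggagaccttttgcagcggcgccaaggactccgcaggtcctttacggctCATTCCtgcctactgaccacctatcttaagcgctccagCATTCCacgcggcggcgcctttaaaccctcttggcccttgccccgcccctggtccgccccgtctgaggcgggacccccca

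The CArG box was found in 1 of the 9 member windows, that of Cnn2, at bases 56 to 47 before the start. It occurred in 1.63% of all 32851 windows of the same length. Only exact matches to CCWWWWWWGG, with W for A or T, were counted as a CArG box, and variants of it were not sought. CATTCC was found in 2 member windows, against 14.7% of all windows. Tagln2 held it at bases 118 to 113 and 80 to 75 before the start, and Tpm1 held it on the other strand at bases 56 to 51. CAGCTG was found in 3 member windows, against 16.3% of all windows: that of Tpm2, the first of Tpm3, and that of Tpm4, where the match spans the start. The windows of Cnn1 and Cnn3 and the second window of Tpm3 held none of these motifs, and no match overlapped another. A match describes the letters of these windows only and is not a measured binding site.

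The cultures behind these values were checked with marker genes. Of 14 T cell markers, 9 were listed at 0 in every library, among them Cd3d, Cd3e, Cd3g and Cd4. The list summed to 3.29 to 3.96 TPM in controls and 3.85 to 4.28 TPM after co-culture. Its most abundant genes were Ikzf2, which did not pass, and Lck and Ptprc, which were too low to be tested. Ikzf2 and Lck overlapped between groups. Ptprc was higher in every co-culture library (0.348 ± 0.0582 to 0.535 ± 0.0952 TPM). Of 11 adipose stromal cell markers, 3 rose, 7 fell and all were detected. Among them Dcn went from 1018 ± 33.5 to 576 ± 8.35 TPM, Thy1 from 463 ± 2.21 to 441 ± 7.91 TPM and Itgb1 from 1057 ± 25.3 to 1115 ± 9.05 TPM. The list summed to 3696 to 3812 TPM in controls and 3206 to 3228 TPM after co-culture, and without Dcn to 2716 to 2769 and 2624 to 2652 TPM. All 10 skeletal muscle markers rose, and they summed to 1226 to 1270 TPM in controls and 3210 to 3279 TPM after co-culture. Of 8 markers of mature smooth muscle, 3 rose and none fell among 5 tested, and their sum moved from between 213 and 237 to between 246 and 250 TPM. Without Actg2 that sum was 141 to 159 and 153 to 157 TPM. Actg2 rose (75.6 ± 3.50 to 93.55 ± 1.73 TPM), while Smtn (86.3 ± 4.37 to 84.0 ± 3.39 TPM) and Hspb6 (32.15 ± 3.44 to 29.15 ± 1.87 TPM) did not pass. All 3 smooth muscle markers that rose are counted again in the partner lists below. Myocd, the cofactor of SRF that defines smooth muscle, stayed below the 1 TPM filter, at 0.515 ± 0.114 and 0.433 ± 0.0987 TPM. Of 8 pericyte markers, 2 rose and 3 fell among 7 tested. Their sum was 518 to 536 TPM in controls and 621 to 645 TPM after co-culture, but without Des, which is also on the skeletal muscle list (131 ± 8.80 to 287 ± 4.91 TPM), it was 391 to 396 and 339 to 354 TPM. Notch3 (22.4 ± 0.112 to 11.2 ± 0.284 TPM) and Pdgfrb (347 ± 1.95 to 313 ± 7.61 TPM) were lower. Besides Des, the pericyte marker that rose was Cspg4 (2.33 ± 0.202 to 4.51 ± 0.137 TPM), named after its value was seen. Macrophage markers summed to 94.4 to 102 and 68.5 to 80.0 TPM, of which Lyz2 made up most. Endothelial markers summed to 48.4 to 52.3 and 42.8 to 48.4 TPM, mesothelial markers to 806 to 808 and 731 to 745 TPM, and adipocyte markers to 110 to 121 and 88.7 to 96.9 TPM, or without Fabp4 to 19.8 to 26.01 and 20.8 to 21.8 TPM. In bulk RNA, fewer cells of a type and less RNA per cell cannot be told apart, and the part of these cell markers in the results below was not tested. Treg co-culture 1 stood apart in transcripts of adult heart and liver, whose 8 markers summed to 101.8 TPM there and to at most 1.10 TPM in controls. Without that library 8 members were still called higher and 1 lower, beside 2116 higher and 1877 lower over all genes tested.

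**Figure D1:**
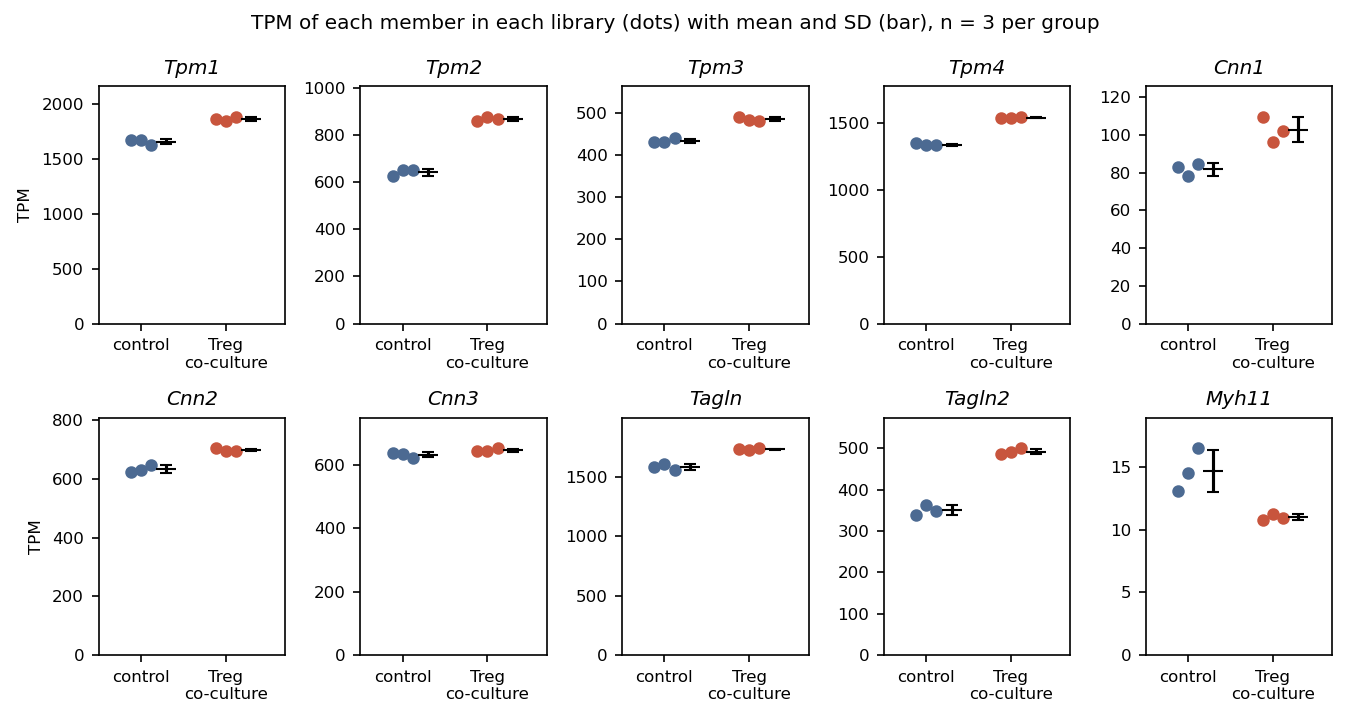
TPM of each of the 10 genes (vertical axis, from 0) in the 3 control and 3 Treg co-culture libraries (dots), with mean and SD as the bar beside them. The co-culture dots lie above the control dots in 9 panels and below them in that of Myh11.

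Tropomyosins were the most abundant family. Their TPM summed to 4066 ± 13.7 in controls and 4752 ± 17.4 after co-culture, or 0.407% and 0.475% of all TPM. Tpm1, which makes the main tropomyosin of striated muscle as well as stress fibre forms, stood at 1666, 1664 and 1628 TPM in controls 1 to 3 and at 1855, 1843 and 1878 TPM in Treg co-culture 1 to 3. Every co-culture library lay above every control, and the change was 0.17 on the log2(TPM + 1) scale (SE 0.02, adjusted p = 3.45e-05 in limma). In controls Tpm1 ranked 66th of the 12405 genes tested. GENCODE M21 lists 21 transcripts of Tpm1, and the deposited value is 1 sum per gene, so muscle and cytoskeletal forms were not separated here.

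Tpm2, which makes the tropomyosin called beta in muscle, was at 624, 650 and 650 TPM in controls and at 860, 875 and 868 TPM after co-culture. The groups were far apart relative to their spread, and Tpm2 had the lowest adjusted p of the 10 genes (log2 fold change 0.44, SE 0.02, limma adjusted p = 2.86e-07). Within batches 1 to 3, which the labels give to equally numbered libraries, its co-culture value was 1.34 to 1.38 times the control value. Tpm4, a mainly cytoskeletal tropomyosin gene, was at 1348, 1334 and 1334 TPM in controls and at 1538, 1540 and 1546 TPM after co-culture. It differed little between libraries of a group, and it rose by 0.20 on the log2 scale (SE 0.02, limma adjusted p = 5.72e-06). Tpm3, which makes a slow muscle form and several cytoskeletal forms, was at 430, 430 and 439 TPM in controls and at 490, 483 and 480 TPM after co-culture. Its groups did not overlap either (log2 fold change 0.16, SE 0.02, limma adjusted p = 0.000254).

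The tropomyosins did not rise evenly. The share of Tpm2 in the summed tropomyosin TPM was 15.8% ± 0.383 in controls and 18.3% ± 0.176 after co-culture. The share of Tpm1 went from 40.6% ± 0.411 to 39.1% ± 0.241, that of Tpm4 from 32.9% ± 0.210 to 32.4% ± 0.0424 and that of Tpm3 from 10.7% ± 0.162 to 10.2% ± 0.133. For each of the 4 genes the shares of the co-culture libraries lay entirely above (Tpm2) or below (the others) those of controls. Shares in a library add up to the whole, so a larger share of Tpm2 lowers the others together, and the 4 are not separate results. The ratio of Tpm1 to Tpm2 was 2.58 ± 0.0846 in controls and 2.14 ± 0.0320 after co-culture. Only the ratio of Tpm1 to Tpm3 overlapped between groups, at 3.82 ± 0.0948 and 3.84 ± 0.0646. Ratios to Tpm4 were slightly lower after co-culture for Tpm1 (1.23 ± 0.0138 to 1.21 ± 0.00895) and Tpm3 (0.323 ± 0.00502 to 0.314 ± 0.00404). The ratios of Tpm2 to Tpm3 and to Tpm4 were higher. These shares and ratios are descriptions with no test.

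**Figure D2:**
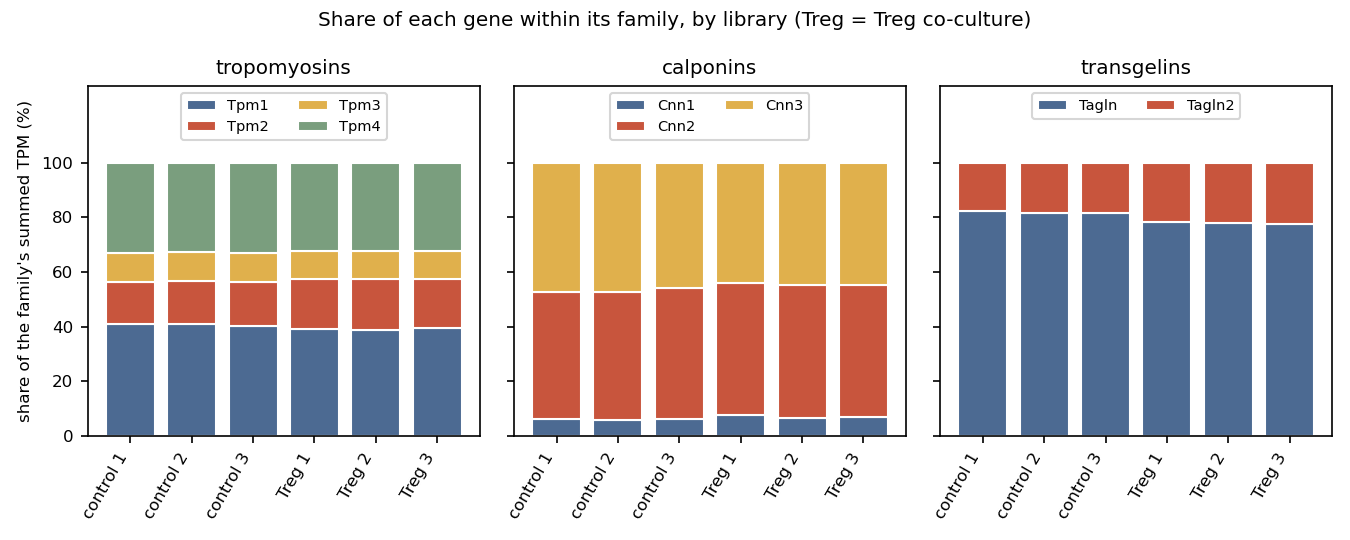
Stacked bars give each gene's share (%) of its family's summed TPM in each of the 6 libraries. Tpm2 takes 18.1% to 18.5% in the co-culture libraries against 15.3% to 16.1% in controls, and Tagln2 takes 21.9% to 22.3% against 17.6% to 18.4%.

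Calponins restrain the myosin motor in smooth muscle and stabilise actin filaments in other cells. Cnn1, the calponin of differentiated smooth muscle, was the scarcest of the family, at 83.0, 78.1 and 84.5 TPM in controls and 110, 96.3 and 102 TPM after co-culture. The co-culture libraries were all higher, Treg co-culture 1 the most, and the change was 0.32 on the log2 scale (SE 0.05, limma adjusted p = 0.000701). Without Treg co-culture 1 it was 0.28 (adjusted p = 0.00235). Cnn2, a calponin of many cell types, was at 626, 630 and 649 TPM in controls and at 704, 697 and 696 TPM after co-culture, a smaller rise (log2 fold change 0.14, SE 0.02, limma adjusted p = 0.000562).

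Cnn3, the acidic calponin, found widely outside muscle, was at 637, 632 and 622 TPM in controls and at 642, 643 and 651 TPM after co-culture. The groups did not overlap, but the gap between the highest control and the lowest co-culture library was small, and the limma test was not passed (log2 fold change 0.03, SE 0.02, adjusted p = 0.221). The 95% interval of its change ran from -0.01 to 0.08 on the log2 scale. Under quantile normalization Cnn3 passed the threshold (0.06, limma adjusted p = 0.0469). Cnn2 and Cnn3 had overlapping levels in controls and did not overlap after co-culture, where the ratio of Cnn2 to Cnn3 was 1.08 ± 0.0142 against 1.01 ± 0.0321 in controls.

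Transgelins bind and bundle actin filaments. Tagln, an early marker of smooth muscle and of contractile fibroblasts, was at 1586, 1606 and 1555 TPM in controls and at 1732, 1729 and 1738 TPM after co-culture. All co-culture libraries were higher, by a log2 fold change of 0.13 (SE 0.02, limma adjusted p = 0.00022). Tagln2, a broadly expressed paralog that is also known from lymphocytes, was at 339, 362 and 349 TPM in controls and at 486, 491 and 500 TPM after co-culture. Its log2 fold change of 0.49 (SE 0.03, limma adjusted p = 6.55e-07) was the largest of the 10 genes. The ratio of Tagln to Tagln2 was 4.52 ± 0.138 in controls and 3.52 ± 0.0426 after co-culture, with no overlap between groups.

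Myh11 was by far the scarcest member. It stood at 13.1, 14.5 and 16.5 TPM in controls and at 10.8, 11.2 and 10.9 TPM after co-culture. The controls spread more widely than the co-culture libraries, yet all lay above them, and the change was -0.38 on the log2 scale (SE 0.09, limma adjusted p = 0.00651). Within batches its co-culture value was 0.665 to 0.822 times the control value. In controls it ranked 7804th of 12405 genes, whereas 8 of the members had a control mean above 300 TPM.

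**Figure D3:**
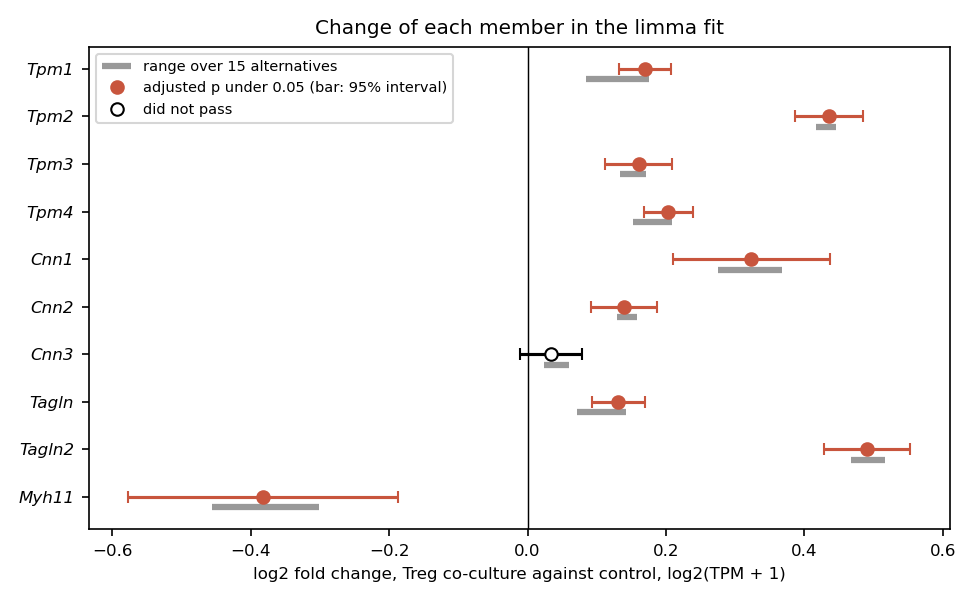
Points give the log2 fold change of each gene on the log2(TPM + 1) scale (horizontal axis) with its 95% interval from limma, and grey bars the range over 15 alternative settings. Tagln2 (0.49) and Tpm2 (0.44) lie farthest to the right, Myh11 (-0.38) lies left of 0, and the interval of Cnn3 includes 0.

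The order of levels was nearly the same in both groups. In controls it ran from Tpm1 (1653 ± 21.7 TPM) through Tagln (1582 ± 25.5), Tpm4 (1339 ± 8.03), Tpm2, Cnn2, Cnn3, Tpm3, Tagln2 and Cnn1 to Myh11. Tpm2, Cnn2 and Cnn3 could not be ranked in controls, because the values of neighbours overlapped. After co-culture these 3 were separate, and Tagln2 (492 ± 6.93 TPM) stood beside Tpm3 (484 ± 4.96 TPM) with overlapping values. The groups did not overlap for any of the 10 members, against 49.3% of all genes tested and 53.9% of those with a mean of 10 TPM or more.

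The changes were modest in size. The median log2 fold change of the 10 genes was 0.17, against 0.00 over all genes tested, and the median size among all genes called was 0.31. None of the 10 reached a 2-fold change, as 1.54% of all genes tested did while passing the threshold. Under quantile normalization the changes of Tpm1 and Tagln shrank to 0.08 and 0.07 but remained past the threshold (limma adjusted p = 0.0132 and 0.0021).

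**Figure D4:**
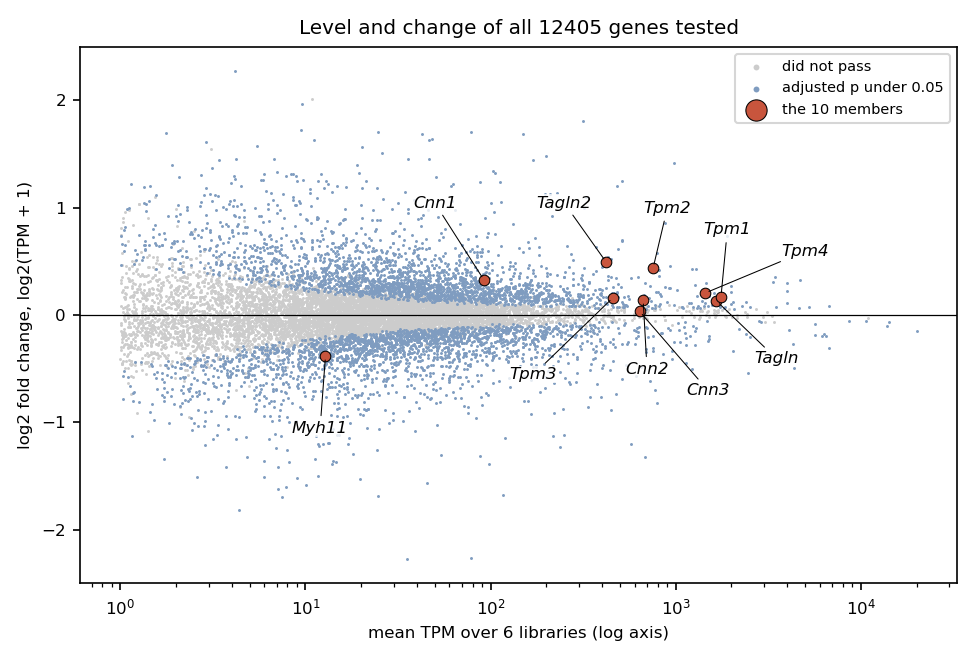
Each dot is 1 of the 12405 genes tested, with mean TPM over the 6 libraries on a log axis and log2 fold change on the vertical axis, and the 10 members are ringed and named. Apart from Myh11 and Cnn1, the members sit at the abundant end, and all lie within 0.5 of no change.

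Genes that work with these proteins were counted in 5 lists, to be read against the 19.8% of all genes tested that were higher and the 18% that were lower. Troponins, which sit on tropomyosin in striated muscle and make it respond to calcium, rose in 7 of 8 cases and had a median log2 fold change of 1.09. The tropomyosin-binding subunits Tnnt2 (91.2 ± 5.11 to 250 ± 4.24 TPM), Tnnt1 (36.2 ± 3.73 to 120 ± 2.77 TPM) and Tnnt3 (137 ± 10.02 to 276 ± 3.82 TPM) and the slow inhibitory subunit Tnni1 (124 ± 6.74 to 271 ± 9.96 TPM) had the lowest adjusted p. Tnni3, the cardiac inhibitory subunit, did not pass (adjusted p = 0.245), and its highest value was in Treg co-culture 1. Their fold changes were larger than those of any tropomyosin, a difference that was not tested.

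Of 20 tested genes for other thin filament partners, 13 rose and 2 fell, with a median of 0.23. The named risers were Synpo2l (11.1 ± 1.37 to 38.2 ± 0.991 TPM), Pdlim3 (28.9 ± 1.54 to 54.8 ± 4.51 TPM) and the leiomodins Lmod2 (13.6 ± 0.165 to 23.8 ± 0.378 TPM) and Lmod3 (16.8 ± 1.32 to 31.8 ± 2.32 TPM), which nucleate actin filaments in striated muscle. Those that fell were the tropomodulin Tmod2, a cap of the pointed filament end (-0.39), and Synpo (-0.22). They are named because they were the only fallers, after their values were seen. Cald1, the caldesmon that shares filaments with tropomyosin and calponin, rose by 0.08 on the log2 scale (1276 ± 39.4 to 1353 ± 1.47 TPM).

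Other actin binders with calponin homology domains rose in 10 of 18 cases and fell in 2, with a median of 0.16. The sarcomeric actinins Actn2 (24.1 ± 0.702 to 47.3 ± 2.37 TPM) and Actn3 (41.2 ± 3.18 to 72.1 ± 3.61 TPM) and the scaffold Iqgap1 (174 ± 1.30 to 228 ± 1.80 TPM) were among those with the lowest adjusted p. Lcp1 and Pls3, which make plastins, were the 2 that fell (-0.30 and -0.08; named after their values were seen), and several alternatives ended 1 or both of these calls. The remaining transgelin, Tagln3, known from neurons, was at most 0.867 TPM in any library and was not tested.

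Smooth muscle actins, non-muscle myosins and their light chain control had 4 higher and 4 lower of 18 tested (22.2% each way, near the shares of all genes) and a median of -0.01. Smooth muscle actin Acta2 (3701 ± 44.4 to 4321 ± 48.9 TPM) and the non-muscle myosin heavy chain Myh9 (726 ± 14.9 to 840 ± 19.1 TPM) rose. The related heavy chain Myh10 (153 ± 2.05 to 130 ± 1.99 TPM) and the light chain Myl12b (244 ± 2.14 to 187 ± 3.52 TPM) fell, as did the light chain kinase Mylk (-0.36), named after its value was seen. Of 12 tested genes for SRF, its cofactors and TEAD factors, 2 rose and 2 fell (16.7% each way, slightly under the shares of all genes), with a median of 0.04. Srf went from 32.4 ± 2.85 to 45.1 ± 0.815 TPM and Tead4 from 6.03 ± 0.191 to 11.5 ± 0.850 TPM, while the LIM protein Fhl2 (186 ± 8.66 to 159 ± 2.40 TPM) and Klf4, a repressor of smooth muscle genes (65.9 ± 0.323 to 50.1 ± 0.890 TPM), were lower. The SRF cofactors Mrtfa and Mrtfb did not pass (adjusted p = 0.239 and 0.416 in limma).

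**Figure D5:**
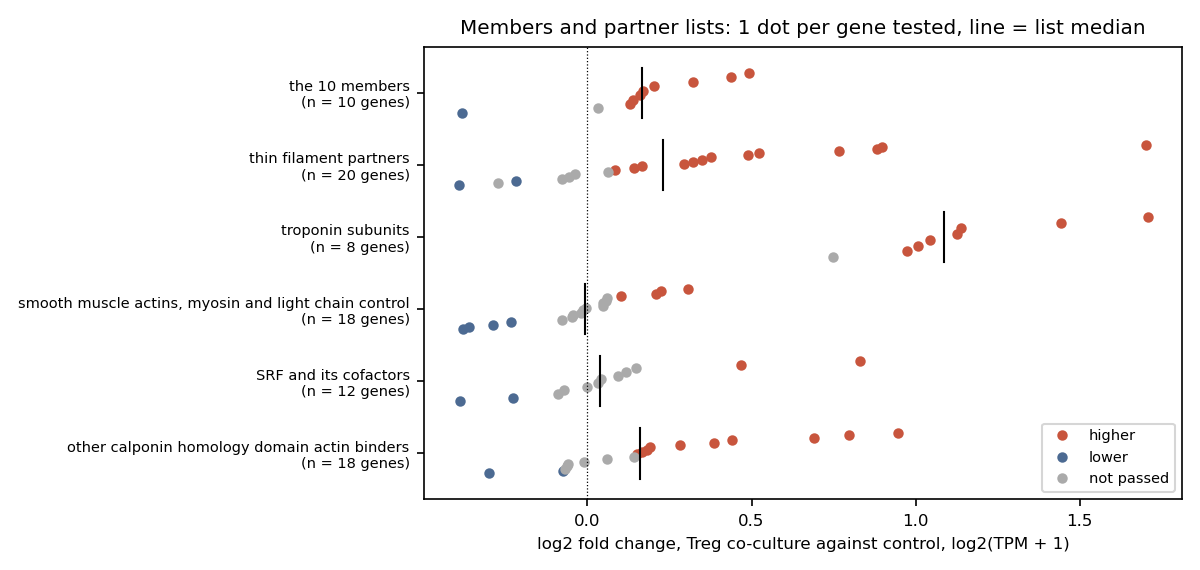
Each dot is the log2 fold change (horizontal axis) of 1 gene tested, in rows for the 10 members and 5 lists of partner genes, with the list median as a line. The troponin row lies farthest to the right (median 1.09) and the row of smooth muscle actins, myosins and light chain control straddles 0 (median -0.01).

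Genes with the most similar pattern over the 6 libraries were sought for the member of each family with the lowest adjusted p, by the root mean square difference of log2(TPM + 1) after centring each gene on its mean. Nearest to Tpm2 were Dock5 (0.02), Tuba1b (0.02) and H2az1 (0.02). Nearest to Cnn2 were Wdr81 (0.01), Ogdh (0.01) and Ahctf1 (0.01). Nearest to Tagln2 were Ppp1r14b (0.02), Ccna2 (0.02) and Enah (0.02), and nearest to Myh11 were Cacna1c (0.03), Klf2 (0.03) and Wdr6 (0.03). With 3 libraries a group, this likeness rests mainly on the size of the group difference.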

How the data were processed

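The authors deposited TPM values, 1 column per library, for genes given by NCBI Gene number. Builds named in the submitters' processing notes are GRCm38, mm10 and GRCm39, with no role. Not given in the sources used here are the aligner, the counter and the treatment of reads shared by paralogs.

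Of 22186 gene numbers, 21992 (99.1%) matched a symbol in a RefSeq table of GRCm38.p6. The 12405 genes with a mean of 1 TPM or more were tested on log2(TPM + 1), which understates the change of low genes, with limma 3.58.1 in R 4.3.3 (mean-variance trend, no block) and Benjamini-Hochberg adjustment over all of them. On data simulated for Treg co-culture against control (12405 genes), 200 genes drawn from all levels were changed. Of these, 95% of genes changed by 1 and 42% of those changed by 0.3 on the log2 scale were recovered. In the data 37.8% of genes were called, far more than were changed here, so these shares do not give the sensitivity for the members. Same-numbered libraries share a batch in the labels. Their deviations from group means correlated between -0.0146 and 0.0115, and the block was an alternative. The remaining alternatives used pseudocounts of 0.1 or 0.01, a filter of 5 TPM or none, median-of-ratios and quantile scaling, eBayes without trend or robust, and each library left out.

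Members, lists and markers were chosen with earlier results of these data known. Unless stated, named partner genes are up to 4 per list with the lowest adjusted p among those called, and named markers up to 3 per list with the highest TPM or those at 0. Cald1, Tnni3, Myocd, Mrtfa, Mrtfb and Tagln3 are outside this rule, named for their roles after their values were seen. A partner gene that this rule would name is not reported here.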

Additional observations from a re-analysis of the deposited data

How the results depend on the processing

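Over the 15 alternatives, 149 of 150 member fold changes kept their direction and their side of the threshold. The exception was Cnn3, which passed under quantile normalization (0.06). With the replicate block, 8 members were higher and 1 lower, as without it, Tpm2 had an adjusted p of 4.12e-06 in limma and Myh11 one of 0.00967, and 2369 genes were higher and 2123 lower over all genes. The block changed no member's call. Of 150 counts over the partner lists, 139 stayed within 1.5 times. The 2 lower calls among other calponin homology domain genes became 1 with the replicate block, with no filter and without the mean-variance trend, and 0 to 1 with each library left out in turn (0 without replicate 1 or 2 of either group). The 2 lower calls among thin filament partners became 1 with a filter of 5 TPM and ranged from 1 (without control 2) to 2 with each library left out. Under that filter Tmod2 was not tested, because its mean over all libraries was below 5 TPM (group means 5.39 and 3.87 TPM). The cause of the other shifts was not tested. No scaling moved the median of all genes by more than 0.01 on the log2 scale. TPM holds no depth, so precision is known only from the spread of 3 libraries a group.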
